A study of Mus musculus with 5 samples.

Results

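The sites described here are the Olig2 peaks of control gliomas that lay on H3K27ac and on H3K4me3 in both genotypes. They were chosen from the peak lists themselves: an Olig2 peak on chromosomes 1 to 19 was taken when it overlapped a peak by 1 bp or more in each of the 4 histone lists. Of 38527 Olig2 peaks on these chromosomes (39201 in the whole list), 16369 met this rule, which is 42.5% of them. Since the rule asks for a peak in every list, the presence of both marks at these sites is not a finding. No position was tied to a gene, so the term promoter-type rests on H3K4me3 alone.

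The study mapped Olig2, H3K27ac and H3K4me3 by chromatin immunoprecipitation and sequencing (ChIP-seq) in PDGFB-induced mouse gliomas, taken 25 days after virus injection from animals of a mixed C57Bl/6;129Sv;CD-1 background. Control tumours carried floxed alleles that include P53f/f, and Olig2cKO tumours carried the same alleles with Olig2f/f added. The floxed alleles of the controls are thus shared by all groups, and the labels name neither the driver of the Cre recombinase nor the number of tumours behind a library. Each of the 5 groups (Olig2 in control, each mark in each genotype) had 1 library of unknown depth. Genotypes are thus compared through single libraries. No replicate check and no test was possible, and intervals (exact, 95%) cover counting error only. The Olig2 library is of control tumours, so the loss of Olig2 protein was not checked here.

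Olig2 is a basic helix-loop-helix transcription factor that binds E-box sequences and sets the fate of oligodendrocyte precursors, and glioma cells of this lineage express it. Acetylation of lysine 27 on histone H3 (H3K27ac) marks active promoters and enhancers, and trimethylation of lysine 4 (H3K4me3) marks mainly promoters around transcription starts. Both marks sit on nucleosomes, so a nucleosome-poor stretch at a start or a factor's site can leave a dip between the flanking marked nucleosomes. A peak caller may report such a pattern as 1 peak or as 2. No sequence is printed for these sites, since the sequences at hand are of another genome build than the peaks (mm9).

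Sites with both marks kept were the commonest of the 16 combinations that the 4 histone lists allow. Olig2 peaks outside all 4 lists came next with 6571 (17.1%, 95% interval 16.7 to 17.4), followed by 5393 with H3K27ac in both genotypes and no H3K4me3 (13.998%, 13.7 to 14.3). A further 4199 Olig2 peaks (10.9%, 10.6 to 11.2) overlapped 3 of the 4 lists. Seen from the control tumours, 89.1% (88.6 to 89.6) of the 18370 Olig2 peaks with both marks had both in Olig2cKO tumours. Seen from the Olig2cKO tumours, 85.3% (84.7 to 85.8) of the 19200 Olig2 peaks with both marks had both in control tumours. The share that met the rule ran from 39.5% (37.1 to 41.9) of Olig2 peaks on chromosome 14 to 45.8% (43.8 to 47.9) on chromosome 7.

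The limit of 1 bp placed few sites on the edge, though a stricter one was met by fewer. With an overlap of 50% of the shorter peak, 13914 of the 16369 sites remained. The median of the smallest of the 4 overlaps was 722 bp (714 to 728), and it was under 100 bp at 196 sites (1.20%). Just inside the rule lay chr1:194014428-194014885 (Olig2 score 74.81), which touched Olig2cKO H3K27ac by 1 bp. The sites chr2:154233448-154234203 (62.42) and chr8:108020651-108021327 (93.08) touched control H3K27ac by 1 bp. Just outside lay chr11:107084978-107085805 (90.81), 1 bp from an Olig2cKO H3K4me3 peak. The peaks chr5:135224072-135224698 (81.17) and chr11:69477171-69477781 (77.31) missed that list by 2 bp. Of the 4199 Olig2 peaks with 3 lists, 115 (2.74%, 2.27 to 3.28) had the missing peak within 100 bp, and 421 (10.03%, 9.13 to 10.97) within 1 kb.

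The Olig2 peaks at these sites were strong and wide within their own list, a property that the rule did not use directly. Their median score, the value that the authors' peak caller gave each peak, was 121.45 (120.12 to 123), against 78.8 (78.2 to 79.5) for the 22158 other Olig2 peaks. The ranges overlapped throughout, with 5% of the sites below 55.6 and 5% above 384.5. Their median width was 1036 bp (1029 to 1043) against 729 bp (724 to 733). Wide peaks have more room to touch other lists. Within each of 10 classes of Olig2 width, the median score was still higher at these sites than at the other Olig2 peaks, and without classes it was higher on all 19 chromosomes. Of the Olig2 peaks with H3K27ac alone in both genotypes, the median score was 90.56 (88.33 to 92.32), and of those outside all lists it was 65.7 (65.1 to 66.5).

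The share of Olig2 peaks that kept both marks rose with the Olig2 score, from 19.1% (17.9 to 20.4) in the lowest decile to 64.2% (62.6 to 65.7) in the highest. With the upper 50% of each histone list the share in the highest decile was 33.5%. In that setting 8815 of the 38527 Olig2 peaks met the rule, against 16369 in the main one. The 33.5% thus has a lower base and is not to be set against the 42.5% of the main setting. By Olig2 peak width it rose from 8.10% to 76.2%. Each step of both series was upward, and the highest score decile (250.54 to 2772.83) held 2473 of the sites.

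**Figure D1:**
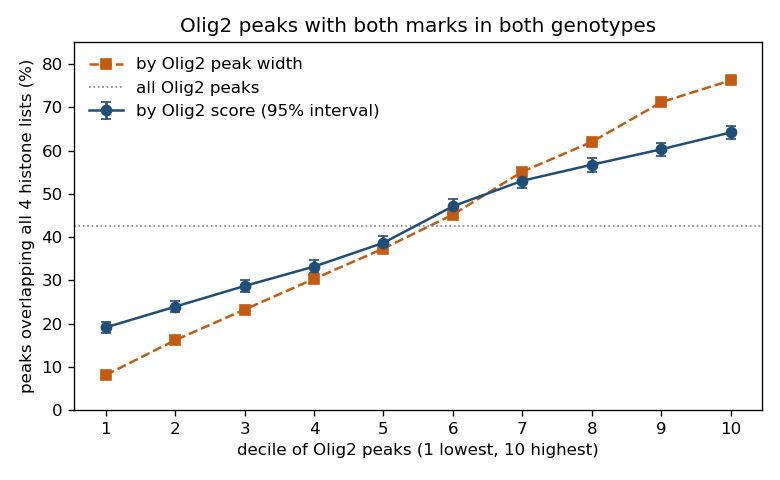
Share of Olig2 peaks that overlapped all 4 histone lists (percent), by decile of the Olig2 score (circles, bars are exact 95% intervals) and by decile of Olig2 peak width (squares); the dotted line is the share among all Olig2 peaks, 42.5%. Both series rise at each step, the score series from 19.1% to 64.2% and the width series from 8.10% to 76.2%.

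The highest Olig2 scores belonged to peaks that looked alike in every list. A look-alike is an Olig2 peak with both edges within 300 bp of the edges of a peak in each of the 4 histone lists. Such a peak meets the rule by definition. There were 301 of them (1.84% of the sites, 1.64 to 2.06), and they made up 8 of the 10 and 14 of the 100 sites with the highest Olig2 scores. The highest was chr9:35112389-35113397 (Olig2 score 2772.83), where the histone peaks were 709 to 1064 bp wide with scores of 2755.73 to 3100. The other 4 of the 5 highest were chr12:75904717-75905655 (2433.04), chr2:98506283-98507608 (2344.47), chr12:68160005-68161327 (2230.38) and chr4:3016321-3018507 (2035.02). All 5 were look-alikes. At the site on chromosome 2 the 5 peaks were 1287 to 1326 bp wide. A peak of the same extent under 3 antibodies and in both genotypes does not tell the marks apart, so some results below were also computed without these sites. The positions of gaps, the shares of Olig2 centres inside peaks, the width classes and the correlations with Olig2 score were not. Without them 16068 sites had medians of 121.5 (Olig2 score) and 1040 bp (Olig2 peak width), the H3K4me3 and H3K27ac width differences given below were 132 and 32 bp, and the split shares were 8.23% and 9.82%.

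Among sites that were not look-alikes, chr6:93089570-93091661 had the highest Olig2 score, 1492.35. It lay in a control H3K27ac peak of 2679 bp and an Olig2cKO H3K27ac peak of 4601 bp. Its H3K4me3 peaks had scores of 401.22 in control and 264.31 in Olig2cKO tumours, where the medians of those lists were 344.3 and 327.6. Next came chr17:39979832-39985907 (1435.15), at 6076 bp the widest Olig2 peak of all the sites. It overlapped 2 H3K27ac peaks in each genotype, 3 control and 2 Olig2cKO H3K4me3 peaks. The sites chr2:98501988-98503276 (1318.07) and chr4:70038754-70039685 (1159.85) had H3K4me3 peaks of 956 and 998 bp and of 663 and 857 bp, in control and Olig2cKO order. The site chr19:6240791-6242495 (1155.84) overlapped 2 peaks of control H3K4me3 and 1 of Olig2cKO H3K4me3, a change in peak number that recurs below. The look-alike rule compares edges only and does not use scores. At the chromosome 2 site, near the look-alike chr2:98506283-98507608, the histone peaks had scores of 1442.83 to 2252.94, above the medians of their lists. At the chromosome 17 site, those it overlapped most had scores of 237.99 to 572.92. Whether signal common to all libraries remained at sites outside the look-alike rule was not tested.

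Histone peaks at these sites ranked high in their own lists. In control tumours, 17632 H3K27ac peaks (31.9% of the list on these chromosomes) and 19214 H3K4me3 peaks (44.2%) touched at least 1 of the sites. In Olig2cKO tumours the numbers were 18544 (27.3%) and 18059 (37.9%). The median control H3K27ac peak at the sites had a score of 415.4 and a width of 1827 bp, against 129.9 and 1358 bp for the rest of that list. For control H3K4me3 the medians were 694.4 and 1391 bp at the sites, against 211.8 and 916 bp. For Olig2cKO H3K27ac they were 386.2 and 1665 bp, against 132.2 and 1378 bp, and for Olig2cKO H3K4me3 751.7 and 1686 bp, against 210.3 and 1007 bp. In each of the 4 lists the peaks at the sites were thus the stronger and wider ones. The rule asked for overlap, which wide peaks meet more easily, and scores are not scaled between libraries. The rest of a list also held peaks that the other histone lists lacked. Control peaks that touched all 4 lists without Olig2 had median scores of 182 (H3K27ac) and 393.8 (H3K4me3). These lay between the medians of the sites and of the rest.

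Regions marked in all 4 lists were bound by Olig2 more often when they were wide. Among control H3K4me3 peaks that touched the other 3 histone lists, the share with any Olig2 peak ran from 60.8% (58.8 to 62.8) in the narrowest of 10 width classes (median 596 bp) to 81.7% (80.1 to 83.2) in the widest (median 3602 bp). Among control H3K27ac peaks of the same kind it ran from 58.4% (56.4 to 60.4) at a median of 688 bp to 88.1% (86.8 to 89.4) at 4818 bp. A wider region also offers more room for an Olig2 peak, and the part of width in these shares was not tested.

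Most marked regions with a site held a single one. When the 4 histone lists were merged wherever they overlapped, 17882 merged regions held sites. Of these, 17488 held 1 site, 387 held 2 and 7 held 3. A site that touched 2 or more regions, as 1896 did (11.6%, 11.1 to 12.1), is counted in each. The first 5 regions with 3 sites, in chromosome order, were chr3:103592231-103595028 (2798 bp), chr3:142050140-142058359 (8220 bp), chr5:150324901-150331953 (7053 bp), chr11:69830790-69844326 (13537 bp) and chr13:23851092-23857593 (6502 bp). The region of 2798 bp held 1 peak in each histone list under its 3 Olig2 peaks, while the one of 13537 bp held 2 in each. The median region with sites was 2595 bp wide, and the median region with 2 or more was 4220 bp wide. Regions with all 4 lists and no Olig2 peak numbered 5940, with a median width of 2156.5 bp. Neighbouring sites lay a median of 54.6 kb apart.

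**Figure D2:**
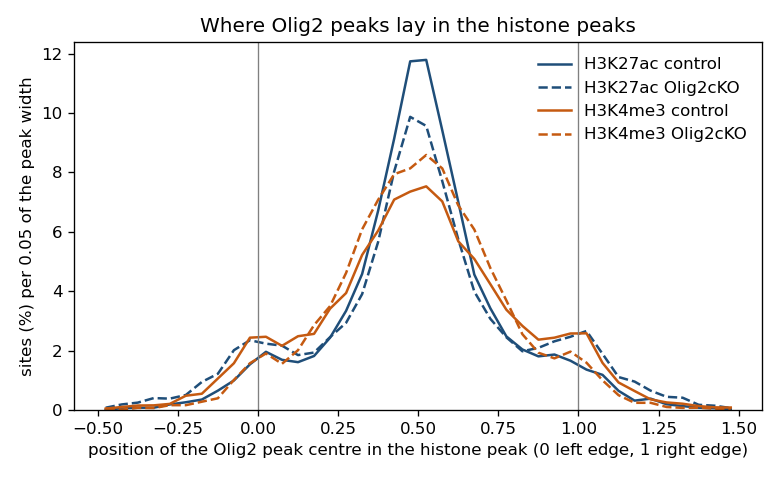
Position of the Olig2 peak centre in the histone peak that it overlapped most, as a share of that peak's width from the left edge (0) to the right edge (1), with centres outside the peak below 0 or above 1, in percent of the 16369 sites per 0.05; solid lines are control and dashed lines Olig2cKO. All 4 curves have their highest point in the middle, where the curve for control H3K27ac is the highest and that for control H3K4me3 the lowest, and low shoulders lie at both edges.

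Olig2 peaks sat near the middle of the marked stretch, and closest to the middle in control H3K27ac. The distance between the centre of the Olig2 peak and that of the histone peak it overlapped most had a median of 253.5 bp (247 to 259) for control H3K27ac. The median was 328.5 bp (320 to 335) for Olig2cKO H3K27ac, 287 bp (281 to 293.5) for control H3K4me3 and 285 bp (279 to 291) for Olig2cKO H3K4me3. The Olig2 centre fell in the middle of the peak, between 40 and 60% of its width, at 42.1% of sites for control H3K27ac, 35.2% for Olig2cKO H3K27ac, 29.0% for control H3K4me3 and 32.8% for Olig2cKO H3K4me3. It fell inside the peak at 91.1% (90.7 to 91.6), 82.5% (81.9 to 83.1), 85.9% (85.4 to 86.5) and 92.1% (91.6 to 92.5) of sites, in the same order. The plot of positions shows the order of the shares in the middle by the height of its curves. The 2 marks thus differed in opposite ways: beside control tumours, the Olig2cKO lists held Olig2 centres inside H3K27ac peaks less often and inside H3K4me3 peaks more often.

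The number of histone peaks under an Olig2 peak differed between the genotypes in the same 2 directions. At 11844 sites (72.4%, 71.7 to 73.0) the Olig2 peak touched exactly 1 peak in each of the 4 lists. It touched 2 or more H3K27ac peaks at 1621 sites in control (9.90%, 9.45 to 10.4) and 2490 in Olig2cKO tumours (15.2%, 14.7 to 15.8). For H3K4me3 the order was the reverse, with 3143 sites in control (19.2%, 18.6 to 19.8) and 2033 in Olig2cKO tumours (12.4%, 11.9 to 12.9).

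Site by site, a single control H3K27ac peak stood against 2 or more Olig2cKO peaks at 1379 sites (8.42%, 8.00 to 8.86). The opposite was seen at 510 (3.12%, 2.85 to 3.39). Among the 5393 Olig2 sites with H3K27ac in both genotypes and no H3K4me3, these counts were 53 (0.983%, 0.737 to 1.28) and 23 (0.426%, 0.271 to 0.639). Those Olig2 peaks were narrower (median 795 bp), and a narrow peak can touch fewer neighbours. For H3K4me3, 2 or more control peaks stood against a single Olig2cKO peak at 1517 sites (9.27%, 8.83 to 9.72), and the opposite was seen at 407 (2.49%, 2.25 to 2.74). Among 3573 other Olig2 sites with H3K4me3 in both genotypes, the counts were 178 (4.98%, 4.29 to 5.75) and 82 (2.29%, 1.83 to 2.84). Their Olig2 peaks were narrower too, with medians of 733 to 883 bp by combination of lists, so the same limit holds.

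The same pattern held when the histone peak, not the Olig2 site, was the unit. A peak is called split here when it overlapped 2 or more peaks of the same mark in the other genotype. Of 17249 control H3K27ac peaks at the sites, 1394 (8.08%, 7.68 to 8.50) were split in Olig2cKO tumours, against 4.45% of all control H3K27ac peaks with a partner. With the upper 50% of each histone list the share at the sites was 4.77%. Of 18227 Olig2cKO H3K27ac peaks at the sites, 168 (0.922%, 0.788 to 1.07) were split in control tumours, against 1.38% of all. For H3K4me3, 1732 of 17924 Olig2cKO peaks (9.66%, 9.23 to 10.1) were split in control tumours, against 7.23% of all, and 144 of 19066 control peaks (0.755%, 0.637 to 0.889) were split in Olig2cKO tumours, against 0.586%. In both marks the split ran mostly one way, toward Olig2cKO tumours for H3K27ac and toward control tumours for H3K4me3, at the sites and in the whole lists. When all peaks with a partner were weighted to the widths of those at the sites, the share was 5.08% for H3K27ac and 9.34% for H3K4me3, so the H3K4me3 share at the sites was near that of the whole list at matched widths. Depth is unknown for all 4 libraries and its part in the direction was not tested.

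In the commoner direction of each mark, shares of split peaks were lower where all 4 lists met without Olig2. Of 6288 such control H3K27ac peaks, 249 (3.96%, 3.49 to 4.47) were split in Olig2cKO tumours. They were narrower and weaker (median 1414 bp and score 182, against 1853 bp and 426.4 at the sites). Weighted to the widths of the peaks at the sites their share was 4.93%, and weighted to the scores it was 4.99%. Distal peaks, meaning those with an Olig2 peak that had H3K27ac in both genotypes and no H3K4me3, were split in 95 of 5221 cases (1.82%, 1.47 to 2.22), or 1.99% at the widths of the peaks at the sites. The share at the sites was higher than in either comparison set on 19 of 19 chromosomes. By class of control width it was higher in 7 of 10 classes than without Olig2, and in 10 of 10 than at distal peaks. For H3K4me3, 358 of 6253 Olig2cKO peaks without Olig2 (5.73%, 5.16 to 6.33) were split in control tumours, or 7.63% when weighted to the widths at the sites and 6.85% to the scores. In the rarer direction, Olig2cKO H3K27ac peaks split in control tumours were more frequent without Olig2 (86 of 6808, 1.26%, 1.01 to 1.56) and at distal peaks (68 of 5256, 1.29%, 1.01 to 1.64) than at the sites (0.922%). Control H3K4me3 peaks without Olig2 were split in Olig2cKO tumours in 34 of 6688 cases (0.508%, 0.352 to 0.710), against 0.755% at the sites. These are descriptions of single libraries, and no test of the difference was possible.

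**Figure D3:**
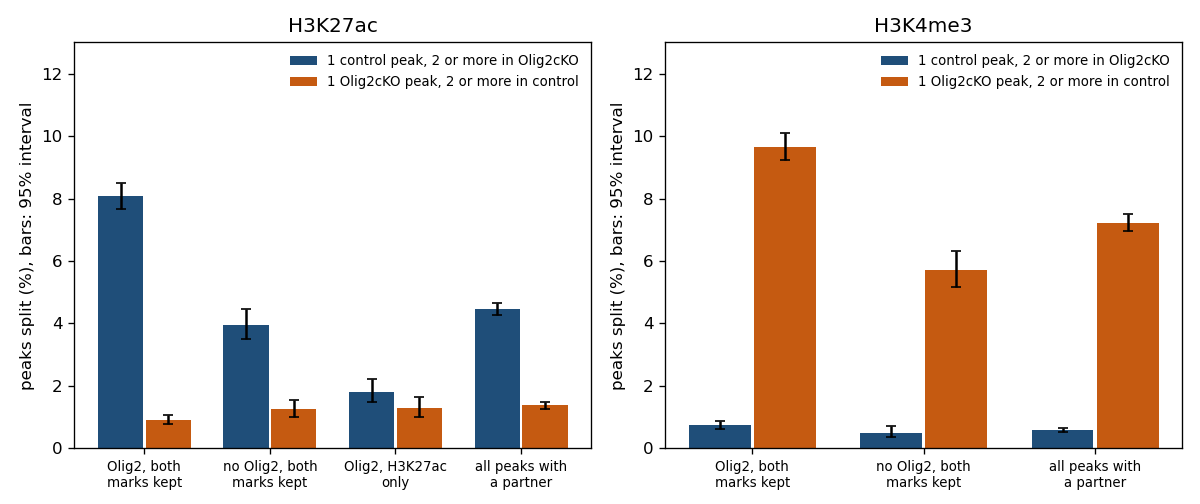
Share of peaks (percent, bars with exact 95% intervals) that overlapped 2 or more peaks of the same mark in the other genotype, for H3K27ac (left) and H3K4me3 (right), in peaks at the sites, in peaks of all 4 lists without Olig2, in peaks at Olig2 sites with H3K27ac alone (H3K27ac only) and in all peaks with a partner. At the sites 8.08% of control H3K27ac peaks were split in Olig2cKO tumours and 0.922% the other way, while for H3K4me3 the shares were 0.755% and 9.66%.

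The gap between the parts of a split peak lay mostly under the Olig2 peak. Among 1319 control H3K27ac peaks that held 1 site and faced exactly 2 Olig2cKO peaks, the gap had a median of 138 bp and touched the Olig2 peak in 1210 cases (91.7%, 90.1 to 93.2). The Olig2 peak covered a median of 47.7% of the control peak. The centre of the gap lay a median of 168 bp (156 to 178) from the Olig2 centre. For the 1647 Olig2cKO H3K4me3 peaks that faced exactly 2 control peaks, the gap had a median of 128 bp and touched the Olig2 peak in 1520 cases (92.3%, 90.9 to 93.5), with 36.8% of the peak under Olig2 and a median distance of 191 bp (179 to 199.5). For the 156 Olig2cKO H3K27ac peaks that faced 2 control peaks, the gap touched the Olig2 peak in 71 cases (45.5%, 37.5 to 53.7), where Olig2 covered a median of 30.6%, and the median distance was 707.75 bp (428 to 911). The rarer direction of H3K4me3 did not share this lower value. Among 138 control H3K4me3 peaks that faced 2 Olig2cKO peaks, the gap touched the Olig2 peak in 126 cases (91.3%, 85.3 to 95.4). Olig2 covered a median of 60.2% of these peaks, and the median distance was 193.25 bp (154 to 222).

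Gaps also lay near the middle of peaks that had no Olig2. The gap centre was between 40 and 60% of the peak's width for 60.05% (57.3 to 62.7) of the split control H3K27ac peaks at the sites and for 53.3% (46.8 to 59.7) of the 244 without Olig2. For split Olig2cKO H3K4me3 peaks these shares were 44.6% (42.1 to 47.0) and 43.2% (37.9 to 48.5) of 352. Since Olig2 peaks sat in the middle of histone peaks as well, nearness of the gap to Olig2 describes position and was not shown to be particular to binding.

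**Figure D4:**
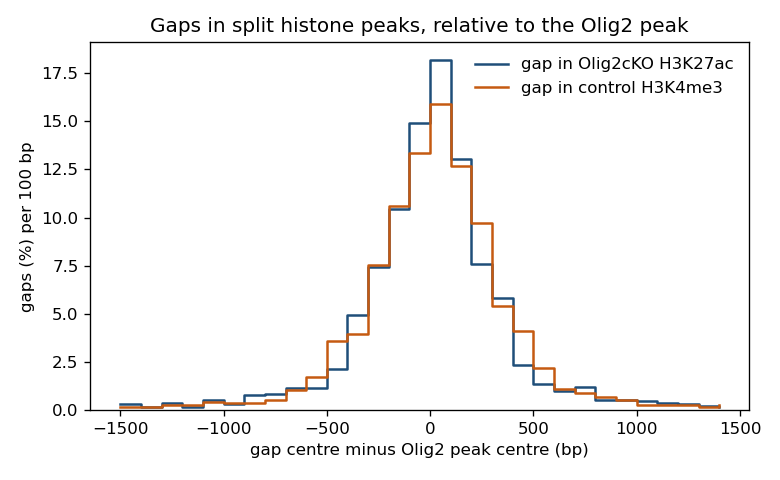
Distance from the Olig2 peak centre to the gap centre (bp, bins of 100) for control H3K27ac peaks facing exactly 2 Olig2cKO peaks (blue, 1319 gaps) and Olig2cKO H3K4me3 peaks facing exactly 2 control peaks (orange, 1647 gaps), in percent of gaps. Both curves are highest at the bins beside 0, and the median distances are 168 and 191 bp.

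The split of H3K27ac in Olig2cKO tumours and that of H3K4me3 in control tumours met at some of the same sites. Of the 1379 sites with 1 control and 2 or more Olig2cKO H3K27ac peaks, 468 (33.9%, 31.4 to 36.5) also had 2 or more control peaks and 1 Olig2cKO peak of H3K4me3. Of the 13369 sites with 1 H3K27ac peak in each genotype, 705 (5.27%, 4.90 to 5.67) did. Wide Olig2 peaks can touch more peaks of either mark, and the part of Olig2 width was not tested. The share of sites with 1 control and 2 or more Olig2cKO H3K27ac peaks rose from 4.62% in the lowest Olig2 score decile to 10.5% in the eighth and was 7.20% in the highest.

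Some sites show these patterns in full. They were chosen after the values were seen, as the 3 highest Olig2 scores of each kind without look-alikes at which the Olig2 peak touched 1 peak in one genotype and 2 in the other. The gap therefore lies under the Olig2 peak by the choice of sites. At chr4:147242317-147243359 (Olig2 score 753.58) the control H3K27ac peak ran from 147241419 to 147245106. In Olig2cKO tumours 2 peaks lay there, from 147241525 to 147242546 and from 147242721 to 147244316, with a gap of 174 bp. The gaps at chr3:85102888-85104991 (699.81) and chr7:134027873-134028934 (687.05) were 22 and 212 bp. For H3K4me3, the site chr19:6240791-6242495 named above had 1 Olig2cKO peak from 6240782 to 6243244 and 2 control peaks, from 6240866 to 6241620 (score 155.89) and from 6241728 to 6243129 (2193.51). The gaps in control H3K4me3 at chr16:22508807-22510140 (994.35) and chr8:72355904-72356969 (917.66) were 82 and 158 bp. At the chromosome 16 site 1 of the 2 control peaks had a score of 51.06, near the lowest score of its list (50). The single Olig2cKO peak there had a score of 133.59.

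Where the peaks were not split, H3K4me3 was wider in the Olig2cKO list. Pairs here are a control and an Olig2cKO peak that overlapped no other peak of the opposite list and, at the sites, were the only peaks of the mark that the Olig2 peak touched. For H3K4me3 there were 12217 pairs, with median widths of 1517 bp (control) and 1672 bp (Olig2cKO). In Olig2cKO tumours 71.9% (71.1 to 72.7) of pairs were wider, against 76.8% of all pairs and 79.6% of those marked in all 4 lists without Olig2. Olig2cKO minus control, the median difference was 129 bp (124 to 135). The difference was smaller than over all 34315 pairs of the lists, where it was 151 bp (148 to 154), and than over 5983 pairs marked in all 4 lists without Olig2, where it was 177 bp (170 to 185). A width 1.5-fold or more above that in control was seen in 1226 pairs at the sites (10.04%, 9.51 to 10.6), against 14.3% of all pairs. A width lower by the same factor was seen in 236 (1.93%, 1.70 to 2.19), against 1.48%. Both edges moved outward in 48.9% of pairs at the sites and inward in 12.3%. Over all pairs these shares were 55.7% and 9.07%, and without Olig2 they were 58.1% and 7.76%.

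For H3K27ac the pairs differed little on balance and spread far in both directions. The 12669 pairs had median widths of 2022 bp (control) and 2096 bp (Olig2cKO). Their median difference was 31 bp (22 to 40), and 53.2% (52.3 to 54.0) were wider in Olig2cKO tumours, against 57.1% of all pairs. The interquartile range of the differences was -256 to 369 bp, against -23 to 322 bp for H3K4me3. Over all 42189 pairs the median was 75 bp (70 to 80), without Olig2 it was 76 bp (63 to 89) over 5876 pairs, and at Olig2 sites with H3K27ac alone it was 63 bp (43 to 79) over 5028. A width 1.5-fold or more above control was seen in 1324 pairs (10.5%, 9.92 to 10.997), against 17.4% of all pairs, and a width lower by that factor in 1147 (9.05%, 8.56 to 9.57), against 9.33%. The sign of the median H3K27ac difference depended on the processing. It was -39 bp with the upper 50% of each histone list and -4 bp (-11 to 3) when the widths of all peaks at a site were summed, so no direction is drawn for this mark.

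Within classes of control width the H3K4me3 difference was smaller at the sites than without Olig2 in 9 of 10 classes. In the narrowest class it was 249.5 bp (225 to 280) at the sites and 247.5 bp (229 to 273) without Olig2. In the widest it was 147 bp (128 to 168) against 268 bp (216 to 337). With class 1 the narrowest, the H3K4me3 intervals overlapped in classes 1 to 4 and 6, and lay apart in classes 5 and 7 to 10. For H3K27ac the difference was smaller at the sites in 7 of 10 classes, with intervals that overlapped in all 10. In the widest H3K27ac class it was -147 bp (-200 to -97) at the sites and -62.5 bp (-249 to 36) without Olig2. The classes were cut by control width, which is itself a term of the difference. The trend across classes is therefore not read as a genotype difference, and only values within a class are compared.

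**Figure D5:**
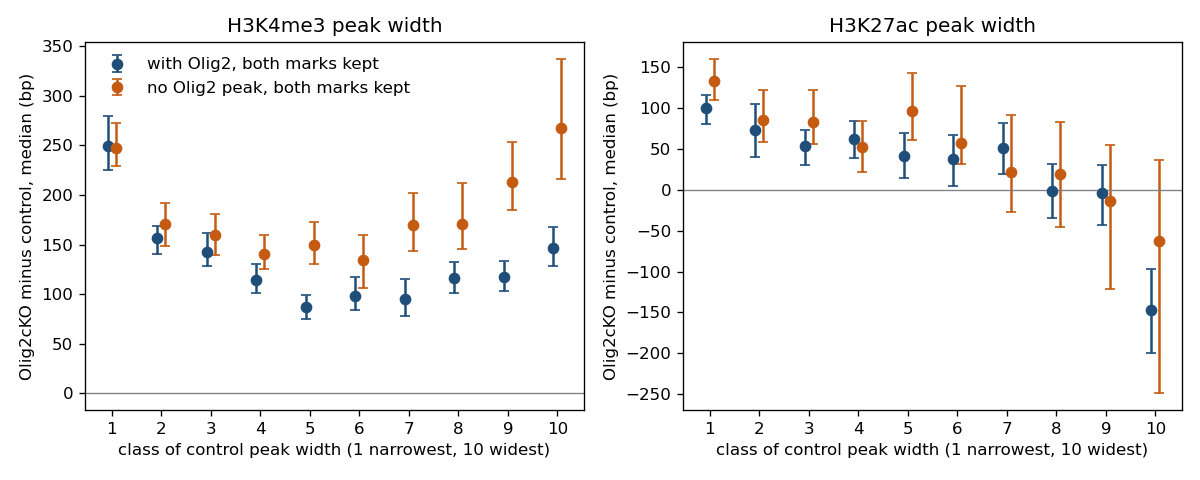
Median difference in peak width (Olig2cKO minus control, bp, bars are exact 95% intervals of the median) by class of control peak width, for H3K4me3 (left) and H3K27ac (right), at the sites (blue) and in peaks of all 4 lists without Olig2 (orange). For H3K4me3 the blue points lie below the orange ones in classes 2 to 10, with intervals that overlap in classes 1 to 4 and 6. For H3K27ac the intervals overlap in every class.

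The widths of both marks were followed together at the 11844 sites with 1 peak in each list. Both marks were wider in Olig2cKO tumours at 43.2% (42.3 to 44.1) of them, and both narrower at 16.5% (15.9 to 17.2). H3K4me3 was wider and H3K27ac narrower at 29.1% (28.2 to 29.9), and the reverse was seen at 11.03% (10.5 to 11.6). The 4 shares were not set against regions without Olig2, so they are not read as a trait of these sites. Across these sites, which share the same 4 libraries, Spearman's rho between the 2 differences was 0.27. The Olig2 score went with the H3K27ac score (rho 0.31 in control and 0.33 in Olig2cKO tumours) and hardly with the H3K4me3 score (-0.05 and -0.06). In the highest of 4 classes of Olig2 score the median H3K27ac difference was 103 bp (85 to 126), while in the other classes it was 23 to 35 bp. These classes were not repeated under the alternative settings. The sign of the H3K27ac difference over all pairs at the sites depended on the processing. The H3K4me3 difference was 128 to 141.5 bp over the 4 classes. Ranks inside the lists were alike in both genotypes, with rho 0.95 between the scores of paired H3K4me3 peaks at the sites and 0.77 for H3K27ac.

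Among the pairs, the largest differences of H3K4me3 width were gains: at the 5 sites named here the control peaks were 1401 to 2991 bp wide and the Olig2cKO peaks 6519 to 8269 bp. At chr11:69419062-69419980 the H3K4me3 peak measured 1634 bp in control tumours against 8267 bp in Olig2cKO, while H3K27ac there went from 8522 to 1052 bp in peaks that were not such a pair. At chr3:142222180-142224099 both marks were wider, H3K4me3 from 2991 to 8269 bp and H3K27ac from 2541 to 7528 bp. The gains at chr2:34627229-34627992, chr13:22132200-22133717 and chr9:102619395-102621177 were 5936, 5118 and 4981 bp. The largest losses were smaller. At chr1:173176864-173178035 the H3K4me3 peak measured 7178 bp in control tumours against 2733 bp in Olig2cKO. The differences at chr4:45981847-45984426, chr9:32505085-32505978, chr19:58528627-58531165 and chr4:152594070-152594790 were -2813, -2356, -2292 and -2244 bp.

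For H3K27ac the largest gain among the pairs was at chr11:57996894-57997928, from 705 to 7239 bp, where H3K4me3 also went from 956 to 5628 bp. The gains at chr5:36250320-36251838, chr8:126253241-126254397, chr5:103620229-103621880 and chr1:64245237-64246405 were 5660, 5602, 5493 and 5479 bp, with H3K4me3 differences of 127 to 612 bp. The largest loss among the pairs was at chr5:32437157-32439962, from 8042 to 1860 bp, where H3K4me3 went the other way, from 5045 to 8592 bp. The differences at chr9:27105963-27107086, chr10:128358876-128361097, chr15:80085099-80086704 and chr1:187155290-187156554 were -6174, -5696, -5388 and -5368 bp. At 17 of these 20 sites the wider peak of the pair had the lower score of the 2 libraries, although scores are not scaled between libraries. None of the 20 was a look-alike.

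The 5 broadest control H3K4me3 peaks at the sites held Olig2 peaks with scores of 53.06 to 132.15, where the median of the sites was 121.45. Over the 11844 sites with 1 peak in each list, Spearman's rho between Olig2 score and control H3K4me3 width was 0.03. The widest in control tumours, 8987 bp with an H3K4me3 score of 118.41, held the Olig2 site chr3:121423678-121425383 (Olig2 score 131.26), and in Olig2cKO tumours the peak was 8424 bp. The other 4 of the 5 widest held chr4:68615002-68615781 (55.19), chr4:17779847-17781658 (53.06), chr3:113732485-113733984 (56.42) and chr9:56265191-56267357 (132.15), in control H3K4me3 peaks of 8460, 8417, 8354 and 8023 bp. Their H3K4me3 peaks were 8014 to 9007 bp wide in Olig2cKO tumours. At chr3:113732485-113733984 the H3K27ac peak measured 8694 bp in control tumours against 3778 bp in Olig2cKO, and at chr9:56265191-56267357 it was 5218 and 2064 bp. At these 5 sites the H3K4me3 difference ran from -563 to 547 bp, and the H3K27ac difference from -4916 to 160 bp.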

How the data were processed

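ChIP-seq peak lists of 5 libraries were used, 1 per group. CASAVA, Bowtie2 and MACS are named for build mm9, per the submitters' processing notes, with no settings and no input library named. Each peak's score was deposited by the authors. The lowest score in each list was 50 to 50.02, and scores rank peaks inside a list only. Positions count from 1 on mm9, and gene tables of another build were not used, so the planned count near transcript starts was not made.

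Overlaps (at least 1 bp) were found with numpy 2.4.6, pandas 2.3.3 and Python 3.11.15, and bedtools 2.31.1 gave the same 16369 sites. Shares carry exact (Clopper-Pearson) 95% binomial intervals (scipy 1.17.1), medians exact order-statistic intervals. On exact copies of 36538 control H3K27ac peaks that stood apart from their neighbours, 200 of 200 splits and 200 of 200 widened peaks were found. The copies had no noise, so this checks the code only and not how reliably the real lists show splits. Matplotlib 3.10.9 drew the figures.

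Sites, lists and rules were chosen with earlier results of these data known. Named sites are the 5 highest Olig2 scores (with and without look-alikes), the 5 widest control H3K4me3 peaks, the 5 largest width gains and losses of each mark, 5 regions with most sites and 3 sites on each side of the overlap limit. Splits were examined after the data were seen. Alternatives covered overlap, score, list length, merging and look-alikes. The genotype of the tumours is not reported here in full.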

Additional observations from a re-analysis of the deposited data

How the results depend on the processing

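No paired analysis was possible because each group had 1 library. Of 38 values under the alternatives, 20 moved by less than their interval or 1.5 times, 16 by more, and 2 changed sign. The number of sites was 8815 with the upper 50% of each histone list and 10840 with the upper 50% of the Olig2 list, and 9710 marked regions held sites with the upper 50% of each histone list. That setting also gave an H3K4me3 width difference of 143 bp, an H3K27ac difference of -39 bp (the sign reversed) and 33.5% of the highest Olig2 score decile, and summed widths gave 169 bp and -4 bp, with an interval of -11 to 3 that includes 0. The cause of these changes was not tested. An overlap of 50% of the shorter peak gave an H3K27ac difference of 46 bp, 59.2% of the highest decile and an Olig2 to H3K4me3 centre distance of 236.25 bp, which was 295 bp without look-alike peaks. For the splits, alternatives were added after the data were seen. The share of control H3K27ac peaks split in Olig2cKO tumours was 4.77% with the upper 50% of the histone lists, 6.65% with lists of equal length and 5.53% with peaks of a list up to 250 bp apart merged. The share of Olig2cKO H3K4me3 peaks split in control tumours was 8.41% with the upper 50% of the histone lists, 10.4% with the upper 50% of the Olig2 list and 6.81% with merged peaks. In the same order of settings, peaks without Olig2 gave 2.01%, 2.65% and 1.83% for H3K27ac, and 5.10%, 5.73% and 3.70% for H3K4me3, lower than at the sites each time. These shares were not weighted to widths or scores. The 5.73% is the share of the main setting, as that set of peaks was the same. The count near transcript starts was not run. Unknown depth limits every width and split.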

Other observations

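Olig2 peaks on chromosome X lie outside the rule. Of 672 such peaks, 289 (43.0%, 39.2 to 46.8) overlapped all 4 histone lists, close to the 42.5% on chromosomes 1 to 19. Their median Olig2 score was 93.55 and their median width 781 bp, against 121.45 and 1036 bp at the sites on the numbered chromosomes.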
